A study of Ovis aries with 9 samples.

Results

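A set of 10 genes of fat cells and of the fat droplets inside cells was followed in the developing back muscle of the sheep fetus: PPARG, CEBPA, ADIPOQ, FABP4, PLIN1, PLIN2, PLIN4, LPL, CFD and AQP7. They were chosen by name, and 9 of the 10 matched a locus, each a single one, among 22605 loci in the table. CEBPA, an adipogenic transcription factor, matched no locus name and is not analysed here. The tissue was longissimus dorsi, the long muscle along the spine, of Chinese merino fetuses taken at gestation day 85 (called D85), 105 (D105) or 135 (D135). Each age had 3 RNA libraries. No treatment or genetic change separates the groups, which share breed and muscle and differ in the labels by gestational age alone. The labels give neither the sex of the fetuses nor whether libraries of the same day are from separate animals, so the p-values rest on a spread among libraries that could be technical.

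Fat cells arise when PPARG and C/EBP factors switch on genes for taking up, storing and releasing fatty acids. LPL, lipoprotein lipase, frees fatty acids from blood lipoproteins on the capillary wall, carrier proteins such as FABP4 move them through the cell, and perilipins (PLIN) coat the droplet in which they are stored as triglyceride. Muscle fibres keep small droplets of their own and also make LPL, PLIN2 and PLIN4, while fat cells between the fibres, the marbling of meat, carry PLIN1 and the hormone adiponectin (ADIPOQ). The members were therefore read as 5 genes mainly of adipocytes (PPARG, CEBPA, ADIPOQ, PLIN1 and CFD), 3 that fibres also make (LPL, PLIN2 and PLIN4) and 2 that muscle capillaries also make (FABP4 and AQP7). These assignments are textbook knowledge, do not exclude other cells as a source of a gene, and were not tested in these data. In bulk tissue, fewer cells of a type and less RNA per cell cannot be told apart.

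Values are FPKM, fragments scaled by transcript length and by library size, which allows levels of different genes to be compared. The table holds no counts: the total was 395797 to 489270 FPKM per library, and relative depth, estimated from low values, ranged from 0.993 to 1.20 of D85 replicate 1, highest in the D135 libraries. Muscle identity was plain in every library, where 7 matched muscle markers (ACTA1, CKM and others) summed to 5436 to 17362 FPKM. The 7 matched adipocyte markers, 4 of them members, summed to 4.9998 to 38.2 FPKM. All 9 matched members were among the 13086 loci tested (those with 3 or more libraries at 1 FPKM or above), although PLIN1 reached that level in 3 libraries and PPARG and FABP4 in 4.

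The members fell into 2 kinds of pattern. ADIPOQ, PLIN1 and FABP4 had 1 library of each day well above the others of that day, and none passed a test between days. High and low are meant within a day: PLIN1 in its highest D85 library, at 0.515 FPKM, was below D135 replicate 1 at 1.30 FPKM. AQP7, PLIN4 and CFD rose between D85 and D135 with no overlap of the libraries. LPL showed both patterns. PPARG ranged over the 9 libraries from 0.644 to 1.55 FPKM and PLIN2 from 3.84 to 7.81 FPKM, and neither passed.

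**Figure D1:**
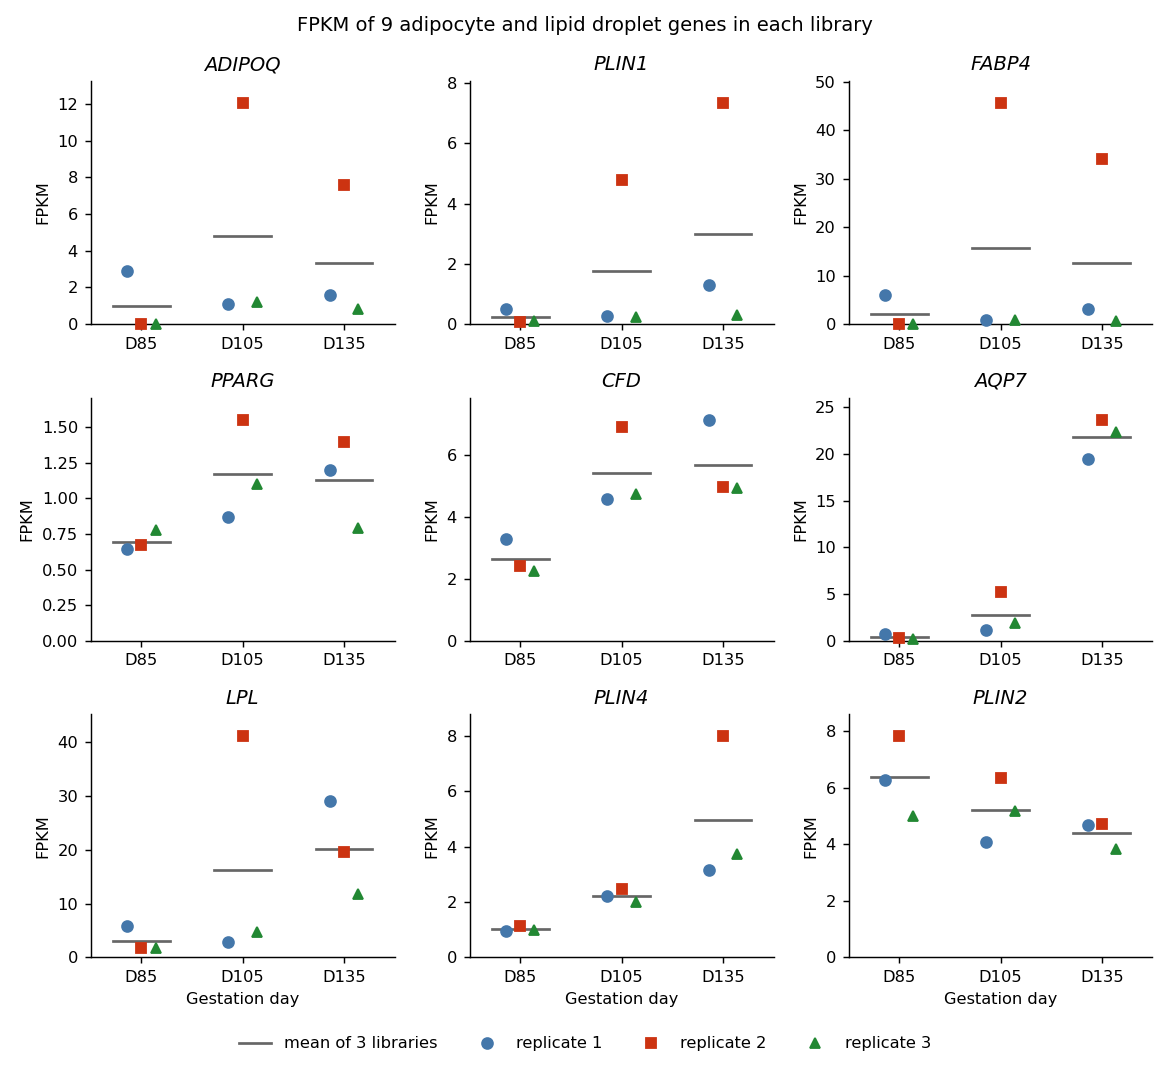
FPKM (vertical axis, a separate linear scale from 0 for each gene) of the 9 matched genes at D85, D105 and D135. Each symbol is a library and each line the mean of 3 libraries. ADIPOQ, PLIN1 and FABP4 have 1 library per day well above the others of that day. All D135 libraries of AQP7, between 19.4 and 23.6 FPKM, lie above those of the earlier days.

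Adiponectin, a hormone secreted by mature adipocytes, was at 2.89, 0.0154 and 0.0147 FPKM in D85 replicates 1, 2 and 3. It was at 1.09, 12.1 and 1.22 FPKM at D105 and at 1.59, 7.61 and 0.814 FPKM at D135. Replicate 1 was the high library at D85 and replicate 2 at D105 and at D135, and the ranges of all 3 days overlapped. PLIN1, the perilipin of the large droplet of fat cells, was at 0.515, 0.0871 and 0.118 FPKM at D85. At D105 it was at 0.265, 4.80 and 0.233 FPKM, and at D135 at 1.30, 7.33 and 0.302 FPKM. The high libraries were those of adiponectin.

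FABP4, the fatty acid carrier of adipocytes that capillary endothelium also makes, followed them closely. Its values were 5.96, 0 and 0.105 FPKM at D85, then 0.785, 45.6 and 0.897 FPKM at D105 and 3.08, 34.2 and 0.665 FPKM at D135. The 0 is a listed value and may stand for very few fragments. In the D105 set, replicate 2 exceeded the next library 50.9-fold for FABP4, 18.1-fold for PLIN1 and 9.90-fold for ADIPOQ. Among all tested loci, 0.0611%, 0.611% and 0.443% stood out at least as far in that library (ratio of FPKM + 1 to the next library). For D135 replicate 2 the corresponding shares were 0.122% for FABP4, 0.481% for PLIN1 and 0.527% for ADIPOQ, and for D85 replicate 1 they were 0.290%, 4.10% and 0.543%. The libraries were picked out by the values of these same genes, so the shares are a description and not a test. ADIPOQ at D85, FABP4 at D85 and D105, and PLIN1 at D105 reached the 1 FPKM of the filter in the high library alone. PLIN1 at D85 reached it in no library.

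Of the 9 members, 6 were highest of their day in D85 replicate 1, 9 in D105 replicate 2 and 7 in D135 replicate 2, against 34.5%, 38.5% and 23.3% of all tested loci. All 3 at once held for 4 members (ADIPOQ, PLIN1, FABP4 and AQP7) and for 3.19% of the loci; the 3 libraries were picked out by the values of the first 3 of these genes, so this is a description. The proportions of the transcripts were not the same in the 3 high libraries: FABP4 was at 2.06, 3.79 and 4.49 times the level of ADIPOQ in D85 replicate 1, D105 replicate 2 and D135 replicate 2, and PLIN1 at 0.178, 0.398 and 0.963 times. Each proportion comes from a single library.

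D105 replicate 2 also stood apart in some genes of connective tissue. The 9 tendon and cartilage markers (TNMD, FMOD, COL2A1 and others) summed to 334 FPKM there, against 15.8 and 21.6 FPKM in the other D105 libraries. Of that list, SOX9 was lowest of its day there (1.62 FPKM against 1.91 and 1.68), and SCX was at 0.321 FPKM against 0.311 and 0.966. The 9 fibro-adipogenic and fibroblast markers summed to 4041 FPKM against 1849 and 1852. Among them COL1A1 differed most (1889 FPKM against 403 and 419). PDGFRA (29.5 FPKM against 26.2 and 22.4) and CD34 (17.7 FPKM against 15.5 and 16.8) differed less. Fibroblast markers summed to 2225, 1513 and 1411 FPKM in D85 replicates 1, 2 and 3, highest in the library with the most ADIPOQ, and to 1058, 1307 and 1929 FPKM at D135, highest in the library with the least. Tendon and cartilage markers summed to 57.6, 63.1 and 23.3 FPKM at D85 and to 4.33, 58.8 and 119 FPKM at D135. The 6 matched leukocyte markers, none at 0, summed highest in the same library as ADIPOQ at D85 (36.2, 15.6 and 16.1 FPKM). So they did at D105 (22.7, 38.4 and 17.1 FPKM), but not at D135 (14.7, 17.6 and 19.7 FPKM). Among them TYROBP, a signalling adaptor of myeloid cells, was at 14.3, 2.06 and 3.16 FPKM at D85 and at 4.77, 15.3 and 2.87 FPKM at D105. LYZ went the other way, at 0.0579, 0.350 and 0.415 FPKM at D85 and at 0.431, 0.205 and 0.642 FPKM at D105. CD68 at D85 was highest in replicate 2 (4.94, 5.22 and 3.36 FPKM). The part of these cells in the members' values was not tested. Of the tendon and cartilage list, COMP was at 0 in D135 replicate 1, and of the fibroblast list no marker was at 0 in any library. The 10 matched endothelial markers, none at 0, summed to 162 to 264 FPKM over the 9 libraries, with 255, 253 and 264 FPKM at D105, and so did not set D105 replicate 2 apart.

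**Figure D2:**
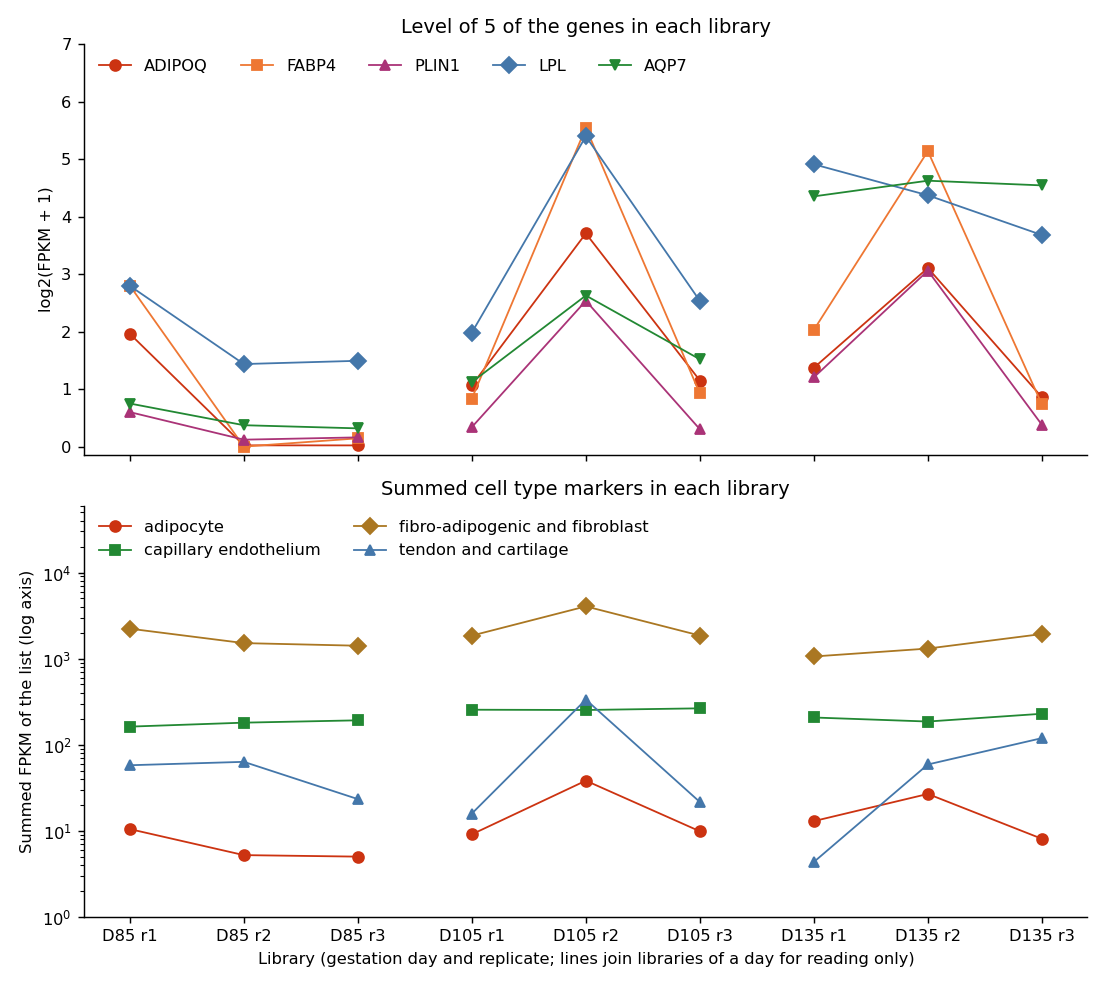
Upper panel: log2(FPKM + 1) of ADIPOQ, FABP4, PLIN1, LPL and AQP7 in each library. Lower panel: summed FPKM, on a log axis, of the adipocyte, endothelial, fibroblast, and tendon and cartilage markers in the same libraries; the adipocyte sum is highest in D105 replicate 2 (38.2 FPKM) and D135 replicate 2 (26.7 FPKM), while the tendon and cartilage sum at D135 is highest in replicate 3.

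None of these 3 genes passed a test between days. On the log2(FPKM + 1) scale, which understates the change of low genes, the D105 minus D85 difference was 1.31 ± 0.91 (SE) for ADIPOQ, 0.77 ± 0.78 for PLIN1 and 1.45 ± 1.57 for FABP4 (limma adjusted p = 0.607, 0.740 and 0.758). Without D105 replicate 2 the differences were 0.44, 0.03 and -0.10. The D135 means also rested on a single library: the D135 minus D85 differences of 1.11, 1.25 and 1.65 became 0.45, 0.50 and 0.40 without D135 replicate 2.

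PPARG, the nuclear receptor that directs fat cell formation, was low throughout. It was at 0.644, 0.670 and 0.777 FPKM at D85, at 0.872, 1.55 and 1.101 FPKM at D105 and at 1.20, 1.40 and 0.790 FPKM at D135. All libraries of D105 and of D135 lay above those of D85, but the margin of the lowest D135 library was small. The D135 minus D85 difference was 0.32 ± 0.16 (SE) and did not pass (limma adjusted p = 0.134). It passed after median-of-ratios scaling (0.55, adjusted p = 0.0367) and quantile normalization (0.58, adjusted p = 0.0306).

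CFD, complement factor D or adipsin, a secreted protease made in quantity by adipocytes and also by myeloid cells, shared its highest library with adiponectin at D85 and D105 but not at D135. It was at 3.28, 2.40 and 2.26 FPKM at D85, at 4.55, 6.90 and 4.74 FPKM at D105 and at 7.12, 4.95 and 4.94 FPKM at D135. Every library of D105 and D135 exceeded every D85 library, and D105 and D135 overlapped. The summed leukocyte markers, given above, were also highest in D85 replicate 1 and D105 replicate 2, though not each marker was. Their part was not tested. CFD rose from 2.65 ± 0.552 FPKM at D85 to 5.67 ± 1.26 FPKM at D135 (SD, n = 3), a log2 difference of 0.87 ± 0.19 (SE) with a limma adjusted p of 0.00790. That call held with each of the 9 libraries left out (adjusted p at most 0.0279). Its D105 minus D85 difference of 0.80 ± 0.19 did not pass (adjusted p = 0.169).

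AQP7, a channel for water and glycerol that lets glycerol leave fat cells, had the largest change of the members. It was at 0.681, 0.294 and 0.246 FPKM at D85, at 1.18, 5.18 and 1.86 FPKM at D105 and at 19.4, 23.6 and 22.3 FPKM at D135. The 3 days did not overlap, and the D135 libraries were close together. Between D105 and D135 it rose from 2.74 ± 2.14 to 21.8 ± 2.17 FPKM (SD, n = 3), 7.95-fold, with a log2 difference of 2.75 ± 0.35 (SE) and a limma adjusted p of 0.00159. Without D105 replicate 2 the D105 mean was 1.52 FPKM, the ratio 14.3 and the adjusted p 0.000467. Against D85 the rise was 53.5-fold (log2 difference 4.03 ± 0.35, adjusted p = 0.000202), the eighth-largest increase of the 13086 loci by log2 difference. All D85 libraries were below 1 FPKM, so that ratio rests on few fragments, and the log2 difference, taken on FPKM + 1, is smaller than the ratio. Both calls held with each of the 9 libraries left out. Its D105 minus D85 difference of 1.28 ± 0.35 did not pass (adjusted p = 0.198), although each D105 library exceeded each D85 library.

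AQP7 was high in all D135 libraries whatever their level of ADIPOQ. At D135 the library with the lowest ADIPOQ, replicate 3, had 22.3 FPKM of AQP7, against 23.6 FPKM in replicate 2 where ADIPOQ was 7.61 FPKM. Endothelial markers summed to 207, 186 and 229 FPKM at D135, below the D105 libraries in FPKM as deposited, with no other scaling applied. Of 10 endothelial markers tested, 0 rose and 2 fell from D105 to D135 (4.47% and 35% of all tested loci). The falls, of KDR and TIE1, did not pass after median-of-ratios scaling (log2 differences 0.009 and -0.06, limma adjusted p = 0.968 and 0.733). Neither passed after quantile normalization (limma adjusted p = 0.0704 and 0.287). From D85 to D135, 4 rose and 0 fell (6.9% and 39.7%). Summed muscle markers, like the means of AQP7, LPL and PLIN4, were highest at D135. The 7 matched summed to 5436 to 7456 FPKM at D85 and to 6555 to 8823 FPKM at D105. At D135 they summed to 14090, 16716 and 17362 FPKM in replicates 1, 2 and 3, an order opposite to that of LPL. D105 replicate 2, the highest library for LPL, had a muscle sum of 6701 FPKM. Of 7 muscle markers tested, 4 rose and 1 fell from D85 to D135 (6.9% and 39.7% of all tested loci). The part of muscle or endothelial cells in the AQP7, LPL and PLIN4 values was not tested.

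LPL was at 5.94, 1.70 and 1.81 FPKM at D85, at 2.95, 41.1 and 4.79 FPKM at D105 and at 29.0, 19.7 and 11.8 FPKM at D135. D85 replicate 1 and D105 replicate 2 were high, as for adiponectin, but at D135 replicate 1 was highest and replicate 3, with little ADIPOQ, still exceeded every library of the earlier days other than D105 replicate 2. LPL was at 2.05 to 3.93 times the level of ADIPOQ in D85 replicate 1 and the D105 libraries. It was at 2.59 times in D135 replicate 2, and at 18.3 and 14.5 times in D135 replicates 1 and 3. D85 replicates 2 and 3 are left out of these proportions, with ADIPOQ at 0.0154 and 0.0147 FPKM. Their proportions were far higher than the others and rest on very few ADIPOQ fragments, so the proportions show no steady rise with age. From D85 to D135 it rose from 3.15 ± 2.41 to 20.2 ± 8.62 FPKM (SD, n = 3), a log2 difference of 2.41 ± 0.85 (SE) and a limma adjusted p of 0.0479. That call was lost in 6 of the 9 fits with a library left out, with an adjusted p of 0.126 without D85 replicate 2 or D135 replicate 1, 0.117 without D85 replicate 3, 0.106 without D135 replicate 2, 0.0637 without D135 replicate 3 and 0.0564 without D105 replicate 3; it was 0.00547 without D105 replicate 2 and 0.0534 after quantile normalization. From D105 to D135 the difference of 1.02 ± 0.85 did not pass (adjusted p = 0.371), while without D105 replicate 2 LPL went from 3.87 to 20.2 FPKM (log2 difference 2.06, adjusted p = 0.0227).

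PLIN4, the perilipin of small droplets in fibres and fat cells, was at 0.945, 1.15 and 0.999 FPKM at D85, at 2.22, 2.49 and 1.997 FPKM at D105 and at 3.16, 7.97 and 3.72 FPKM at D135. The 3 days did not overlap, and at D135 replicate 2 was highest. PLIN4 rose from 1.03 ± 0.108 FPKM at D85 to 4.95 ± 2.63 FPKM at D135 (SD, n = 3), with a log2 difference of 1.47 ± 0.26 (SE) and a limma adjusted p of 0.00306, a call kept with each of the 9 libraries left out. From D105 to D135 it rose by 0.80 ± 0.26 (adjusted p = 0.0423), but this call was lost in 7 of the 9 fits with a library left out, those of all 3 D85 libraries, all 3 D105 libraries and D135 replicate 3 (adjusted p up to 0.104, and 0.0722 without D105 replicate 2). Without D135 replicate 2 the difference was 0.46.

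PLIN2, the droplet coat protein found in most cells, was the highest member at D85 and lost that place later. It was at 6.26, 7.81 and 5.004 FPKM at D85, at 4.09, 6.34 and 5.16 FPKM at D105 and at 4.67, 4.71 and 3.84 FPKM at D135. The D135 libraries lay below those of D85. The D135 minus D85 difference of -0.43 ± 0.18 (SE) did not pass (limma adjusted p = 0.0829), was -0.03 after median-of-ratios scaling and passed without D85 replicate 3 (-0.57, adjusted p = 0.0421).

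**Figure D3:**
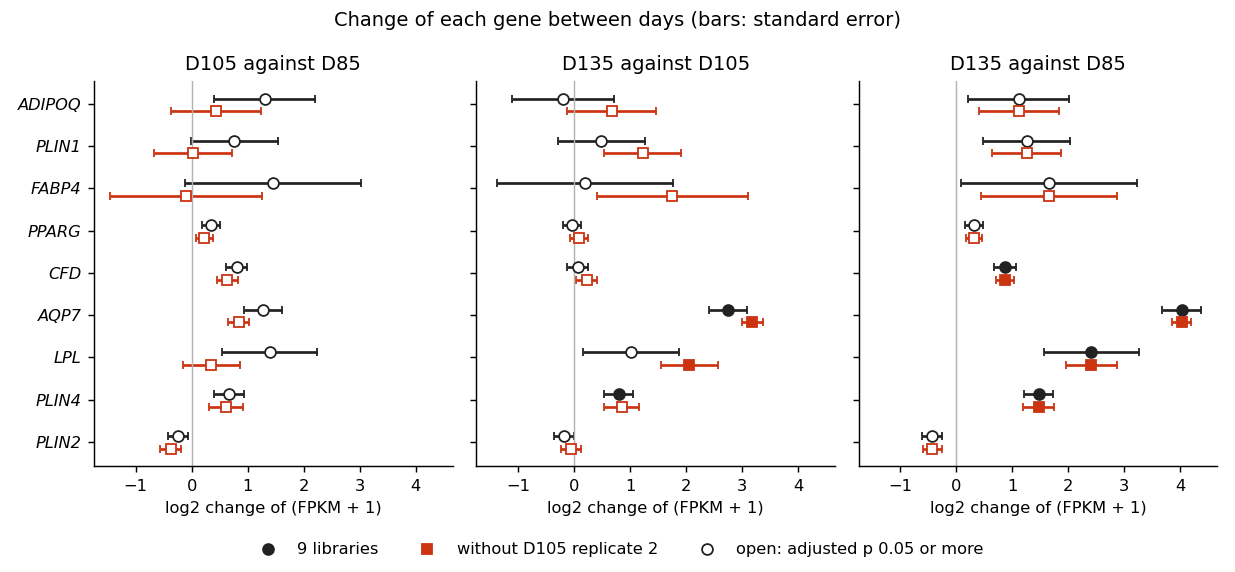
Difference in log2(FPKM + 1) between days with its standard error for each of the 9 genes, from all 9 libraries (circles) and without D105 replicate 2 (squares); filled symbols have a limma adjusted p under 0.05. AQP7 has the largest differences (2.75 against D105 and 4.03 against D85), and leaving out D105 replicate 2 moves ADIPOQ, PLIN1, FABP4 and LPL most.

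Counted together, 0 of the 9 members passed between D85 and D105 (limma, adjusted p under 0.05), where 0.199% of all tested loci passed. An unadjusted p under 0.05 was reached by 3 members (PLIN4, CFD and AQP7) and by 12.3% of the loci. Between D105 and D135, 2 rose (AQP7 and PLIN4) and 0 fell, where 4.47% of all tested loci rose and 35% fell. Between D85 and D135, 4 rose (AQP7, PLIN4, LPL and CFD) and 0 fell, where 6.9% of the loci rose and 39.7% fell. Without D105 replicate 2, 0 members passed between D85 and D105 (0.168% of loci), 2 rose between D105 and D135 (AQP7 and LPL; 4.23% of loci rose) and 4 rose between D85 and D135 (7.13%). The libraries did not overlap, with the later day higher, for 4 members between D85 and D105 (8% of all tested loci), 2 from D105 to D135 (6.43%) and 5 from D85 to D135 (9.42%). PLIN2 was the member whose later libraries all lay lower, between D85 and D135 (48.8% of loci). The median log2 difference of the members was 0.80, 0.20 and 1.25 in these comparisons, against -0.02, -0.33 and -0.35 over all tested loci. Without D105 replicate 2 the members' medians were 0.35, 0.85 and 1.25. Median-of-ratios scaling moved the medians over all loci to -0.01, 0.01 and 0.01, with 1389 loci higher and 911 lower from D105 to D135 and 1952 higher and 1642 lower from D85 to D135. The comparisons share libraries and are not independent of each other.

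By level, PLIN2 was highest at D85 (6.36 FPKM on average), followed by LPL, CFD, FABP4, PLIN4, ADIPOQ, PPARG, AQP7 and PLIN1 (0.240 FPKM). At D135 the order was AQP7, LPL, FABP4, CFD, PLIN4, PLIN2, ADIPOQ, PLIN1 and PPARG (1.13 FPKM). Neighbours in these orders overlapped on each day. AQP7 moved from the 0.963rd percentile of the tested loci by mean FPKM at D85 to the 92.4th at D135, and LPL from the 34.4th to the 91.8th.

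For each member with a mean of at least 1 FPKM, the named loci with the most similar log2(FPKM + 1) were found. These correlations describe 9 libraries that share 3 days, and carry no test. ADIPOQ was closest to FABP4 (r = 0.98 over 9 libraries, 0.97 over the 8 without D105 replicate 2), and FABP4 to ADIPOQ and then PLIN1 (r = 0.95). PLIN1 was closest to FABP4 over 9 libraries and to ATP5S, a mitochondrial coupling factor, over 8 (r = 0.96). AQP7 was closest to ADARB1, an RNA-editing enzyme, TUBA8, a tubulin, and ESR1, the estrogen receptor (each r = 0.99 over 9 libraries). TUBA8, second over both 9 and 8 libraries, was at 0.693, 2.36 and 14.4 FPKM on average at D85, D105 and D135. PLIN4 was closest to C1QTNF9, an adiponectin relative, and ANKRD23, a stretch-responsive muscle protein (r = 0.96 and 0.95), and over 8 libraries to CRAT, carnitine acetyltransferase, and TNNI2, fast troponin I (both r = 0.97). LPL was closest to FAM26E and JADE2 over 9 libraries, as was CFD, and to NNT, a mitochondrial transhydrogenase, and KLHL38 over 8 (both r = 0.98). PLIN2 was closest to RNF149 (r = 0.92) and PPARG to HINT1 (r = 0.93).

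Partner genes of the members were taken from 7 lists of 68 genes, of which 64 matched a locus and 49 were tested. Between D85 and D105, 0 of the 49 passed, with 7 at an unadjusted p under 0.05 (12.3% of all tested loci). From D105 to D135, 7 rose and 8 fell, where 4.47% of all tested loci rose and 35% fell. These counts depend on the scaling. With median-of-ratios scaling, adipogenic regulators went from 2 rising and 4 falling to 3 and 1. Fat synthesis genes went from 1 and 3 to 2 and 0, and genes of LPL handling and fatty acid uptake from 3 and 1 to 4 and 0. Over all tested loci 1389 rose and 911 fell with that scaling. From D85 to D135, 11 rose and 6 fell, where 6.9% rose and 39.7% fell.

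Among 10 tested genes of LPL handling and fatty acid uptake, 4 rose between D85 and D135 and 0 fell, against 6.9% and 39.7% of all tested loci (median log2 difference 0.36, against -0.35 over those loci). VLDLR, the lipoprotein receptor that works beside LPL, was at 2.93, 3.25 and 2.49 FPKM at D85, at 3.31, 5.84 and 4.14 FPKM at D105 and at 10.5, 10.4 and 9.26 FPKM at D135. All D135 libraries were above the others, and VLDLR rose between D105 and D135 by a log2 difference of 1.05 ± 0.17 (SE; limma adjusted p = 0.00361). FABP3, the fatty acid carrier of muscle, was at 27.2 ± 6.10 FPKM at D85, 23.1 ± 3.85 at D105 and 52.5 ± 0.573 at D135 (SD, n = 3; limma adjusted p = 0.00292 against D105). APOC2, the apolipoprotein that activates LPL, rose from 0.597 ± 0.557 to 2.02 ± 0.490 FPKM over the same interval (limma adjusted p = 0.0218). That call was lost without D135 replicate 2 (limma adjusted p = 0.0664) or replicate 3 (0.0686). APOC2 was under 1 FPKM in all D85 libraries and listed at 0 in D105 replicate 3. It met the filter through its D135 libraries, so its changes rest on few fragments. The other that rose against D85 was ACSL1, which activates fatty acids. LMF1, needed for folding of LPL, was the member of that list that fell between D105 and D135 (-0.56, adjusted p = 0.0184), which did not pass with median-of-ratios scaling (-0.16, adjusted p = 0.500), with quantile normalization (-0.22, adjusted p = 0.340) or without D105 replicate 3 (adjusted p = 0.0501). ACSL1 and LMF1 are named here because of their values. FABP5, the highest of the list by the mean of all 9 libraries, was at 33.6 ± 6.78 FPKM at D85, 45.7 ± 2.03 FPKM at D105 and 39.9 ± 12.8 FPKM at D135, below FABP3 on that day, and did not pass.

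Of 5 lipolysis genes, 3 rose between D85 and D135 and 0 fell, against 6.9% and 39.7% of all tested loci. PNPLA2, which starts triglyceride breakdown, went from 2.27 ± 0.570 to 3.67 ± 0.314 FPKM (limma adjusted p = 0.0163; 0.0540 without D135 replicate 2). ABHD5, its activator, went from 2.61 ± 0.267 to 4.22 ± 0.822 FPKM (limma adjusted p = 0.0260), a call lost without D85 replicate 1 (0.0656), D85 replicate 2 (0.0761), D135 replicate 1 (0.0781) or D135 replicate 3 (0.0626). MGLL, which completes the breakdown, went from 2.53 ± 0.509 to 5.75 ± 1.05 FPKM (limma adjusted p = 0.00535) and kept the call in all 9 fits with a library left out. Of 7 other tested genes of droplet coat and assembly, 1 rose and 0 fell over that interval, against the same shares: PLIN5, the perilipin of oxidative muscle, from 3.51 ± 0.625 to 8.28 ± 3.10 FPKM (limma adjusted p = 0.0110). By the mean of all 9 libraries the most abundant of that list were FITM1 and PLIN3, which were at 12.9 ± 2.42 and 11.2 ± 1.53 FPKM at D85 and at 11.2 ± 1.67 and 7.57 ± 2.21 FPKM at D135.

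Of 10 tested fat synthesis genes, 1 rose and 2 fell from D85 to D135, where 6.9% of all tested loci rose and 39.7% fell (2 and 1 genes with median-of-ratios or quantile scaling). From D105 to D135, 1 rose and 3 fell, where 4.47% of the loci rose and 35% fell (2 and 0 with median-of-ratios, 2 and 1 with quantile scaling). GPD1, which makes glycerol phosphate, rose from 5.98 ± 0.267 FPKM at D105 to 13.5 ± 2.01 FPKM at D135 (limma adjusted p = 0.00164). ACLY, which supplies acetyl-CoA for new fatty acids, fell from 28.2 ± 1.96 FPKM at D85 to 11.04 ± 2.28 FPKM at D135 (limma adjusted p = 0.00158). FASN, fatty acid synthase, was at 11.9, 34.2 and 10.2 FPKM in the D105 libraries (replicates 1, 2 and 3) and at 6.24, 7.87 and 6.51 FPKM at D135. D105 replicate 2 was thus high for FASN too, and the fall from D105 to D135 (limma adjusted p = 0.0463) had an adjusted p of 0.0157 without it. That call was lost in the 7 fits that left out any D85 or D135 library or D105 replicate 1 (adjusted p up to 0.107), and under all 3 other scalings (0.235 with median-of-ratios, 0.203 with quantile normalization, 0.0641 with totals without the top 50 loci). DGAT1, which completes triglyceride, fell from 7.93 ± 0.353 FPKM at D85 to 4.57 ± 1.17 FPKM at D135 (limma adjusted p = 0.00737), but not after median-of-ratios scaling (0.188) or quantile normalization (0.119).

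Of 11 tested adipogenic regulators, 2 rose and 4 fell between D85 and D135 (6.9% and 39.7% of all tested loci), or 5 rose and 3 fell after either median-of-ratios scaling or quantile normalization. From D85 to D105 none passed, and EBF1, the most abundant, was at 18.6 ± 1.67 and 19.8 ± 4.97 FPKM. KLF5, an early adipogenic factor that other cells share, fell from 5.71 ± 1.64 to 1.99 ± 0.394 FPKM (limma adjusted p = 0.00199). ZNF423, which marks committed preadipocytes, fell from 17.3 ± 3.76 to 7.78 ± 0.904 FPKM (limma adjusted p = 0.00156), and EBF2, of brown preadipocytes, from 15.4 ± 0.173 to 7.95 ± 0.627 FPKM (limma adjusted p = 0.000601). These 3 falls kept their direction and call under each of the 3 scalings and each of the 9 left-out libraries. The 2 that rose, named because of their values, were CEBPB and PPARA. CEBPB, an early factor of the C/EBP family, went from 0.377 ± 0.128 to 1.47 ± 0.0370 FPKM (limma adjusted p = 0.00222). All its D85 libraries were under 1 FPKM and it met the filter through its D135 libraries, so this change rests on few fragments. PPARA, the fatty acid receptor of oxidative tissue, went from 5.93 ± 0.487 to 10.0 ± 1.30 FPKM (limma adjusted p = 0.00240). Of 5 tested adipokine and brown fat genes 0 rose and 0 fell in any of the 3 comparisons, while under the other scalings 4 (median-of-ratios) or 3 (quantile) rose from D85 to D135. By the mean of all 9 libraries the most abundant were RARRES2, the adipokine chemerin, at 33.2 ± 6.31, 56.2 ± 6.40 and 43.7 ± 7.97 FPKM at D85, D105 and D135, and CDH13, a cadherin that binds adiponectin, at 7.16 ± 1.32, 9.18 ± 1.28 and 9.23 ± 1.16 FPKM. AQP1, the tested glycerol and water channel partner, ranged from 3.39 to 25.5 FPKM and did not pass.

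**Figure D4:**
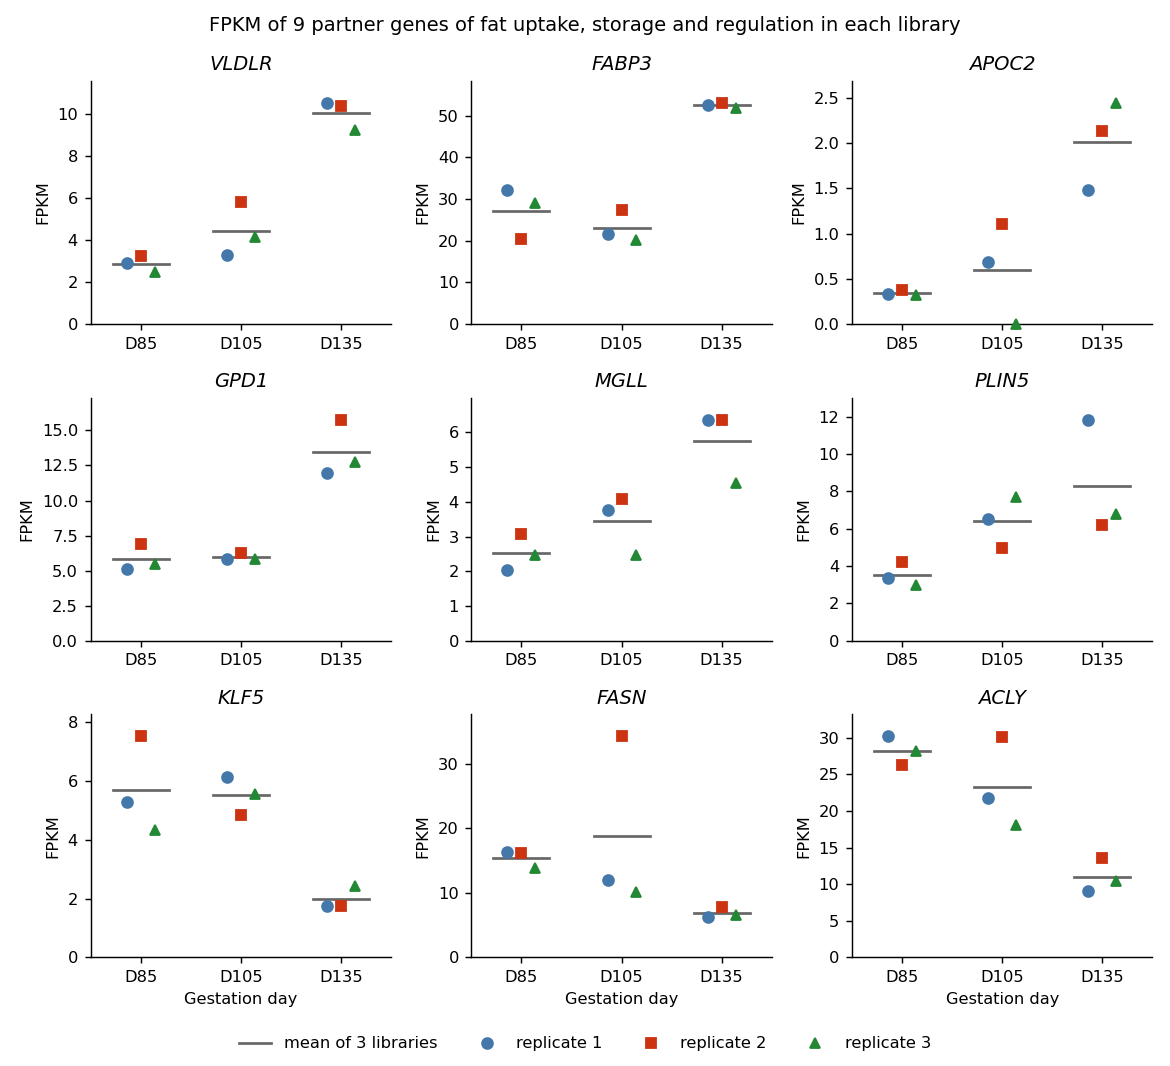
FPKM (vertical axis, a separate linear scale from 0 for each gene) of 9 partner genes of uptake, breakdown, storage, synthesis and regulation in each library, with lines at the mean of 3 libraries. VLDLR and FABP3 are highest in the 3 D135 libraries, KLF5 and ACLY are lowest there, and FASN is highest in D105 replicate 2 at 34.2 FPKM.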

How the data were processed

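The FPKM values of the 9 libraries were deposited by the authors as a single table, per the file headers. Per the labels' protocols, RNA was extracted with Trizol; the tools named in the submitters' processing notes are TopHat2, Bowtie2 and cutadapt. Build and counting method were not given in the sources used here. Which library ran on which of the sequencer models named by the design text is not stated, so no batch was tested. Reads per library are unknown, and relative depth was read from the steps of values under 0.05 FPKM. A member's locus was the one whose name holds it. Lists were matched by name or RefSeq identifier (ARS-UI_Ramb assembly, names only), loci with a reference transcript first.

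The test was limma 3.58.1 (R 4.3.3) on log2(FPKM + 1), for loci that had 3 or more libraries at 1 FPKM or above (variance trend, all 9 libraries, no block, two-sided), with Benjamini-Hochberg adjustment over all 13086 loci and a threshold of 0.05; the code was tested on simulated data. The members and lists were chosen with earlier results of these data known. All members were named. From each list, and in each comparison, up to 3 called genes with the largest change were named, or the 2 with the highest mean, and 3 most alike loci were found per member. Alternatives changed the pseudocount, filter, scaling, variance model, days fitted, block and each library. Tables and plots used Python 3.11.15 with pandas 2.3.3, numpy 2.4.6 and matplotlib 3.10.9.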

Additional observations from a re-analysis of the deposited data

How the results depend on the processing

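Of 498 values of the 9 members under the alternatives, 456 kept their direction and side of the threshold, 18 lost the call, 4 gained it and 20 changed sign. Calls that were lost were those of PLIN4 between D105 and D135 and of LPL between D85 and D135; AQP7 kept both calls throughout. The sign changes were in values that had not passed. For D135 against D105 they came after median-of-ratios scaling for PPARG (0.22), ADIPOQ (0.12) and PLIN2 (0.20), after quantile normalization for PPARG (0.29), ADIPOQ (0.11) and PLIN2 (0.14), and with totals without the top 50 loci for PPARG (0.022). With a library left out, this comparison ranged from -0.13 to 0.092 for PPARG, -0.86 to 0.67 for ADIPOQ, -1.05 to 1.75 for FABP4, -0.27 to 1.23 for PLIN1 and -0.087 to 0.22 for CFD; FABP4 for D105 against D85 ranged from -0.10 to 2.36.

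The 2 members called between D105 and D135 became 1 without a filter, 1 with a filter at 5 FPKM (4 members tested), 1 with only those 2 days fitted, and 1 to 2 with a library left out. The 4 called between D85 and D135 became 2 with the filter at 5 FPKM, where PLIN4 and CFD were no longer tested. In that comparison PPARG gained a call after median-of-ratios scaling (limma adjusted p = 0.0367). After quantile normalization PPARG gained it (limma adjusted p = 0.0306) and LPL lost it (0.0534). Over all loci, the 26 called between D85 and D105 became 45 without a filter, 12 with the filter at 5 FPKM, 17 with only those days fitted and 14 to 28 with a library left out. The 5164 called between D105 and D135 (585 higher, 4579 lower) became 3271 with the filter at 5 FPKM, 2300 after median-of-ratios scaling (1389 higher, 911 lower) and 2058 after quantile normalization (986 higher, 1072 lower). The 6097 between D85 and D135 became 3715, 3594 and 3542. The labels do not say whether a replicate number marks a shared animal or day. Same-numbered deviations correlated at -0.07 to 0.06, which shows no strong shared effect over all loci but cannot settle whether libraries are paired. With the replicate block 8, 4320 and 5495 loci and 0, 2 and 3 members were called, LPL being the one lost (limma adjusted p = 0.0659). Cause was not tested beyond the fewer loci of the stricter filter. Members under 1 FPKM, such as PLIN1 at D85, rest on few fragments.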

Other observations

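Some partner genes were too low for the test and are given as values, chosen after their values were seen. CIDEC, a droplet protein of fat cells that merges small droplets, had 0.345, 10.01 and 0.490 FPKM in the D105 libraries (replicates 1, 2 and 3), and was at 0.399, 3.10 and 0.174 FPKM at D135. DGAT2, which completes triglyceride in fat cells, was at 0.560, 6.47 and 0.543 FPKM at D105 and at 0.573, 5.30 and 0.177 FPKM at D135. For both genes the high libraries were those of ADIPOQ, PLIN1 and FABP4, and at D85 both were below 1 FPKM in each library.

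UCP1, the heat-producing protein that defines brown fat, was at 6.20 FPKM in D135 replicate 2. It was listed at 0 in 6 libraries and at 0.0331 and 0.0167 FPKM in D85 replicates 1 and 2. D105 replicate 2, with the highest ADIPOQ, was among those at 0. Other brown fat markers did not follow UCP1. PRDM16 was at 0.109 FPKM in D135 replicate 2, its lowest value in the 9 libraries. CIDEA was at 1.20 FPKM there, highest of its day but below D85 replicate 2 (1.37) and D105 replicates 2 and 3 (1.60 and 1.40). THRSP, a lipogenic gene of fat and liver, was at 3.38 FPKM in D105 replicate 2 and 0.430 FPKM in D135 replicate 2. LEP, the hormone leptin, was below 1 FPKM in each of the 9 libraries. Each of these values comes from a single library and has no replicate.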
